A study of Mus musculus with 4 samples.

Results

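Macrophages of perigonadal white fat (gWAT) from control mice on a high-fat diet (HFD) were compared with those from control mice on a normal diet. Cells of these 2 libraries were kept if they had at least 500 UMIs (counted RNA molecules), at least 300 genes, at most 10% mitochondrial UMIs and a UMI in at least 2 of the 5 macrophage markers C1qa, C1qb, Csf1r, Adgre1 and Fcgr1. Each cell was thinned at random to 2000 UMIs, so that all had 1 depth, and shallower cells were dropped. This left 6767 cells, 4450 of WT HFD and 2317 of WT normal diet, out of 8791 cell barcodes in the pair and 21867 in the series. The series holds 4 single-cell libraries, 1 for each combination of diet and genotype: control mice, labelled WT, and mice with a conditional knockout (CKO) of BLIMP1. The macrophages had been sorted from gWAT on surface CD45, CD11b and CD64, with dead cells and lineage-positive cells excluded, and the series was set up to follow how macrophage subsets and functions are remodelled. Because each group is 1 library, the group and its library cannot be told apart, no test across libraries could be made, and no p-value is given. The animals behind a library, their age, sex and strain, the make-up and length of the diet, and the driver of the knockout are not stated in the labels or the design text.

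Fat tissue holds resident macrophages, which clear debris and carry scavenger and lectin receptors. When fat expands, monocytes enter through the chemokine receptor Ccr2, and some macrophages gather around dying adipocytes and take up lipid. These lipid-associated macrophages are known for the lipid receptor Trem2, the glycoprotein Gpnmb, the galectin Lgals3 and many lysosomal and lipid-handling genes.

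The WT libraries differed in more than diet. The median depth of the cells analysed was 14642 UMIs in WT HFD and 5143 in WT normal diet. The marker rule, read before thinning, took in 96.3% and 71.1% of the cells that passed the other limits. Of the cells it took in, 29 (0.647%) in WT HFD and 316 (12.0%) in WT normal diet were dropped as too shallow. At the common depth of 2000 UMIs, a cell had a median of 1024 genes in WT HFD and 1125 in WT normal diet. Ribosomal protein genes held 14.4% and 11.2% of the thinned UMIs, and mitochondrial genes 2.84% and 1.83%. In WT HFD 7.91% of all barcodes were over the mitochondrial limit, against 0.615% in WT normal diet. The pair shared 11 barcodes, 4 of them among the cells analysed. The part of these differences in the results was not tested, apart from the alternatives given. Levels are in CPM (counts per 1000000 UMIs) of the pooled thinned cells. All intervals are 95% intervals, exact Poisson for levels and exact binomial for ratios of levels. Those for ratios of shares treat the cells in a gate as Poisson counts and are not exact. For levels, each pooled UMI is treated as independent. All the intervals cover counting error only, not the spread between cells or between mice.

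Of 8310 genes that reached 10 CPM in either library, 1080 (13%) were over 1.5 times higher under HFD and 2361 (28.4%) over 1.5 times lower, by the ratio of (CPM + 1). In what follows, "higher" and "lower" in a count of genes mean past 1.5 times. Past 2 times there were 384 (4.62%) and 864 (10.4%). The median log2 ratio over all genes compared was −0.24, and the list medians are to be read against it. The balance of directions depended on the scaling: higher genes were 31.4% of those past 1.5 times as scaled to all UMIs, and 65.0% after TMM scaling, which put the median of all genes at 0.09. The plot of ratio against level shows Rnase2a alone at the top and Saa3 and Mmp9 at the bottom.

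**Figure D1:**
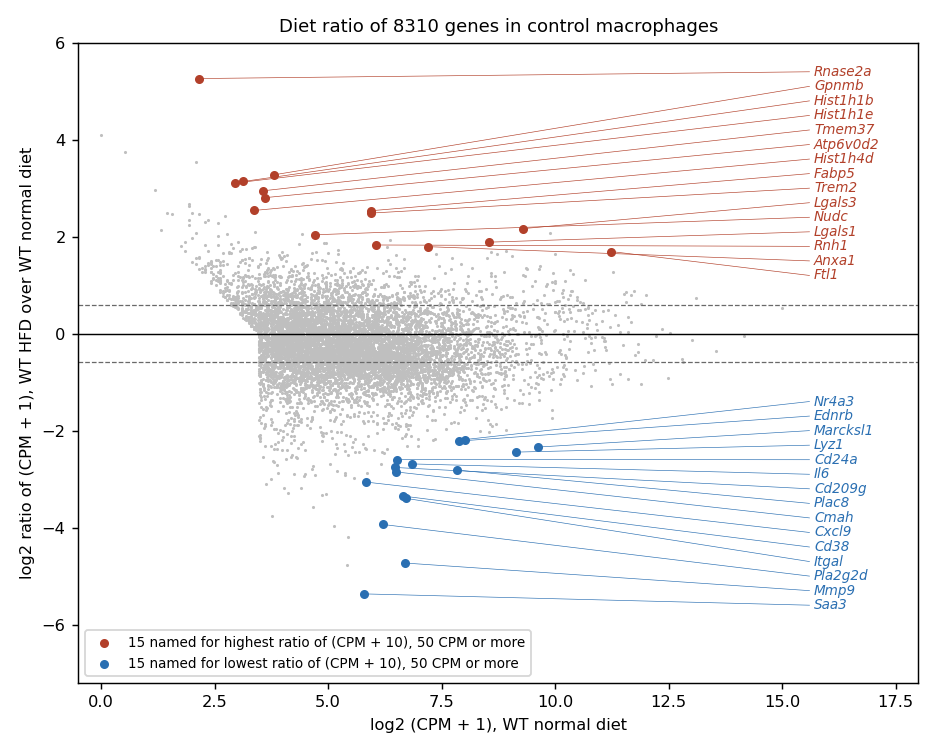
Each point is 1 of the 8310 genes compared, by its level in WT normal diet, log2 (CPM + 1), and its log2 ratio of (CPM + 1), WT HFD over WT normal diet. Dashed lines mark 1.5 times higher and lower. Named points are the 15 highest and 15 lowest ratios of (CPM + 10) at 50 CPM or more, from Rnase2a at 5.26 to Saa3 at −5.37.

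Ratios also followed gene span, the length of DNA from a gene's start to its end. In 5 equal groups of genes with median spans of 4.88, 13.6, 26.5, 50.5 and 124 kb, the median log2 ratios were 0.24, −0.03, −0.19, −0.37 and −0.58. Spearman's rho across genes, which are not independent replicates, was −0.393 in the WT pair and −0.665 in the CKO pair, and the plot by span shows both slopes. The lipid-associated and resident lists, which went in opposite directions, had like median spans of 12.1 and 12.3 kb. Single members still moved with the span trend removed, Apoe from a log2 ratio of 0.79 to 0.54 and Mrc1 from −0.62 to −0.10. The part of span in the directions of the lists was not tested.

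**Figure D2:**
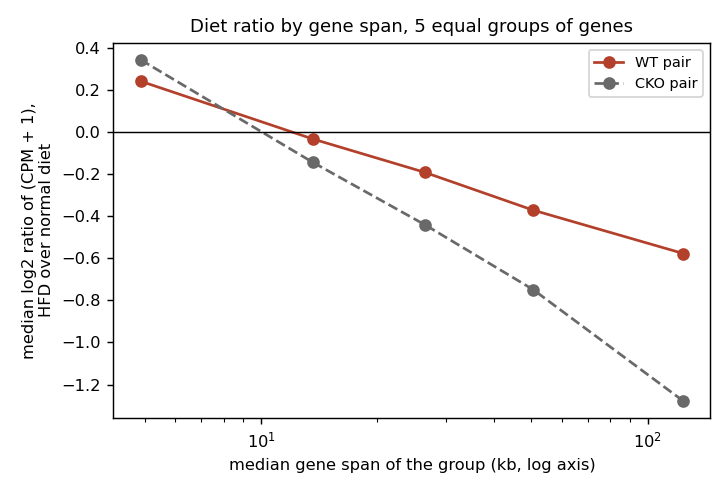
Median log2 ratio of (CPM + 1), HFD over normal diet, in 5 equal groups of genes ordered by span (median kb of the group, log axis), for the WT pair (solid line) and the CKO pair (dashed line). The WT medians go from 0.24 in the shortest group to −0.58 in the longest, and the CKO medians from 0.34 to −1.28.

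Lipid-associated genes were higher under HFD as a group. All 23 genes of the list could be compared, 17 were higher and 2 lower, and their median log2 ratio was 1.40. Trem2, the receptor that senses lipids on these cells, stood at 346 CPM in WT HFD and 60.9 CPM in WT normal diet, a ratio of 5.68 (5.03 to 6.44). Gpnmb, a glycoprotein of lysosome-rich macrophages, stood at 134 CPM in WT HFD and 12.9 CPM in WT normal diet, a ratio of 10.3 (7.98 to 13.6). Fabp5, which carries fatty acids inside the cell, was at 358 and 60.9 CPM in the same order, a ratio of 5.88 (5.20 to 6.66). These genes were detected on both diets, at a low level on the normal diet.

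Atp6v0d2, a subunit of the proton pump that acidifies lysosomes, was at 84.4 and 11.2 CPM, a ratio of 7.52 (5.67 to 10.2). The galectin Lgals3, which marks damaged lysosomes, was at 2810.4 and 626 CPM, a ratio of 4.49 (4.32 to 4.67), and Lgals1, another galectin, at 1373 and 371 CPM, a ratio of 3.70 (3.52 to 3.90). Plin2, the coat protein of lipid droplets, was at 1079 and 363 CPM, a ratio of 2.97 (2.82 to 3.13). The cholesterol carrier Apoe was already abundant on the normal diet, at 5605 and 3244 CPM, a ratio of 1.73 (1.70 to 1.76).

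Other members of the list differed little or were lower. Lpl, the lipase that frees fatty acids from lipoproteins, was at 1627 and 1295 CPM, a ratio of 1.26 (1.22 to 1.29). Itgax, which encodes CD11c, was at 37.5 and 51.6 CPM, a ratio of 0.728 (0.614 to 0.863). The fatty acid receptor Cd36 was at 823 and 1376 CPM, a ratio of 0.598 (0.579 to 0.619). Dcstamp, which takes part in the fusion of macrophages, was at 19.7 and 55.0 CPM, a ratio of 0.357 (0.293 to 0.435). Several of these values moved with the processing. With cells of WT HFD above that library's median depth left out, the log2 ratio of Lpl went from 0.33 to −0.15 and that of Dcstamp from −1.44 to −2.55. With cells above the median depth of their library left out in both, they were 0.59 and −0.83. The direction of Cd36 held but its size did not: its log2 ratio of −0.74 was −0.22 with the span trend removed, −0.25 without thinning, and −1.57 with cells above the median depth of their library left out in both.

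The lipid-associated ratios were smaller without the deepest WT HFD cells. With cells of WT HFD above that library's median depth left out, the log2 ratio of Gpnmb was 1.61 in place of 3.27, that of the protease Ctsl 0.43 in place of 1.40, and that of the protease Ctsk 0.36 in place of 1.85. The list's median was then 0.69. With cells above the median depth of their library left out in both, it was 1.05.

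Promoters are printed for the pair of lipid-associated and the pair of lysosome genes with the highest ratios of (CPM + 10) among those in the promoter table and are shown as examples of the stretches searched for motifs. Each runs 5′ to 3′ on the gene's strand, from 250 bases before to 50 after the annotated start, from RefSeq on build GRCm38.p6. The genes are Gpnmb (ENSMUSG00000029816, chr6:49036268-49036567, plus strand), Trem2 (ENSMUSG00000023992, chr17:48346151-48346450, plus strand), Ctsl (ENSMUSG00000021477, chr13:64370471-64370770, minus strand) and Cd68 (ENSMUSG00000018774, chr11:69666121-69666420, minus strand). Capitals mark the matches found, on either strand: CACGTG, the E-box that the MiT/TFE regulators of lysosomal genes bind, and TGANTCA, the AP-1 site.

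Gpnmb: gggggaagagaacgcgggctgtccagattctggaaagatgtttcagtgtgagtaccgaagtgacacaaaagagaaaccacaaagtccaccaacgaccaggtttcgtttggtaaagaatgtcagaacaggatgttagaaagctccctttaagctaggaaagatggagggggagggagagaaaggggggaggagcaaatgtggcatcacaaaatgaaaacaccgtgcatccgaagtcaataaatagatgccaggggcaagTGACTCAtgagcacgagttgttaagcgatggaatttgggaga

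Trem2: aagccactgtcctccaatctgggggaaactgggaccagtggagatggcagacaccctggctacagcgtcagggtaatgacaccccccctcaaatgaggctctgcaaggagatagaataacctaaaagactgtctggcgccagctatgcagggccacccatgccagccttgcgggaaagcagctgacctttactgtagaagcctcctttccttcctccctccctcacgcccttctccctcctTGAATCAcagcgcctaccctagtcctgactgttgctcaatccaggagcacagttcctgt

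Ctsl: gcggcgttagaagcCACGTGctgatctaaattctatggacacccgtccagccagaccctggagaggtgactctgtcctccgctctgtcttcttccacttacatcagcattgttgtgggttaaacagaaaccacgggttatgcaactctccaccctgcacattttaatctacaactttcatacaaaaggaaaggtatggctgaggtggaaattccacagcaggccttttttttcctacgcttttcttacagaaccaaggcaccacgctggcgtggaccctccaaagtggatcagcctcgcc

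Cd68: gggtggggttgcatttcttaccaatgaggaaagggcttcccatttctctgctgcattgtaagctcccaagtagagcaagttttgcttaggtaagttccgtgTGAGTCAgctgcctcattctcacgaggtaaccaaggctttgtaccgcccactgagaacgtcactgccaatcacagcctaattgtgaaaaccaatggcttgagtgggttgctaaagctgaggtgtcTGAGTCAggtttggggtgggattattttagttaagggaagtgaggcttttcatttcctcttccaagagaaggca

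Ctsl held CACGTG, and the other 3 held TGANTCA. A match describes the letters only. CACGTG stood in 7.15% of all 32851 promoters of the table and in 11.2% of the 6670 that belong to genes compared. It stood in 3 of 12 promoters of the higher lipid-associated genes, in 3 of 8 of the higher lysosome genes and 1 of 2 of the lower ones, and in 4 of 12 of all proton pump genes. Over the whole lists it stood in 3 of 16 lipid-associated and 5 of 26 lysosome promoters. TGANTCA stood in 7.81% of all promoters and in 4.90% of those of genes compared.

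Resident genes were lower under HFD as a group. All 24 could be compared, 20 were lower and 1 higher, and the median log2 ratio was −1.17. Timd4, a receptor for dying cells, stood at 1.12 CPM in WT HFD and 24.4 CPM in WT normal diet, 21.7 times lower (11.4 to 46.5). The lectin Cd209g was at 12.0 and 87.2 CPM, a ratio of 0.138 (0.110 to 0.171), and its neighbour Cd209f at 33.7 and 157 CPM, a ratio of 0.214 (0.187 to 0.245). Fcna, a secreted lectin, was at 27.1 and 126 CPM, a ratio of 0.215 (0.184 to 0.251). All 4 were detected on both diets.

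Gas6, which bridges dying cells to their receptors on macrophages, was at 103 and 379 CPM, a ratio of 0.271 (0.2499 to 0.294). Stab1, a scavenger receptor, was at 85.5 and 256 CPM, a ratio of 0.335 (0.305 to 0.367). The haemoglobin receptor Cd163 was at 124 and 310.3 CPM, a ratio of 0.4001 (0.370 to 0.433). These genes of debris clearance thus stood at less than 0.5 times the normal-diet level. The more abundant members differed less. Retnla, a secreted protein that interleukin 4 induces, was at 7614 and 8323 CPM, a ratio of 0.915 (0.904 to 0.926). Selenop, a selenium carrier, was at 1455 and 1839 CPM, a ratio of 0.792 (0.770 to 0.814), and the mannose receptor Mrc1 at 1188 and 1826 CPM, a ratio of 0.651 (0.632 to 0.670). The log2 ratio of Mrc1, −0.62, was −0.10 with the span trend removed and −0.30 with TMM scaling.

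Igf1 and Ccl8 were not lower. Igf1, a growth factor, stood at 730.3 CPM in WT HFD and 285 CPM in WT normal diet, a ratio of 2.57 (2.42 to 2.72), and was the 1 higher gene of the list. The chemokine Ccl8 was at 208 and 199 CPM, a ratio of 1.05 (0.966 to 1.13).

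The promoters of Cd209g and Cd209f, the lowest resident genes by ratio of (CPM + 10) that are in the promoter table, are shown because they are near copies. They are Cd209g (ENSMUSG00000079168, chr8:4134486-4134785, plus strand) and Cd209f (ENSMUSG00000051906, chr8:4105715-4106014, minus strand), and capitals mark TGANTCA.

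Cd209g: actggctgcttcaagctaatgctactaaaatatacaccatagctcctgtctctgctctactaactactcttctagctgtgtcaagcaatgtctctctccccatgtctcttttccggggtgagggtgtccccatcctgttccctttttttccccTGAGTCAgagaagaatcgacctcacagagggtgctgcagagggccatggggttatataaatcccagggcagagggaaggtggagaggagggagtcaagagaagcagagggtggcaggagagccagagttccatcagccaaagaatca

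Cd209f: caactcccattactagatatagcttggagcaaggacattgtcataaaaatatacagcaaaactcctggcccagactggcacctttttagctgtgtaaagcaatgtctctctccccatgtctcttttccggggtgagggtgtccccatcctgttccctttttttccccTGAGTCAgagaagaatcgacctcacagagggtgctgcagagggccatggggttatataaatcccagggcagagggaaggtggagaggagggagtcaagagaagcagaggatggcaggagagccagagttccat

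Their longest identical run was 180 of 300 bases, and no other pair of the 6 promoters printed shared a run over 9 bases. Where the transcripts are alike too, counts of one gene may hold reads of the other, so that Cd209f and Cd209g are uncertain as single genes. The same holds for Lyz1 and Lyz2, Rnase2a and Ear2, and the Hist1h and H2 genes.

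**Figure D3:**
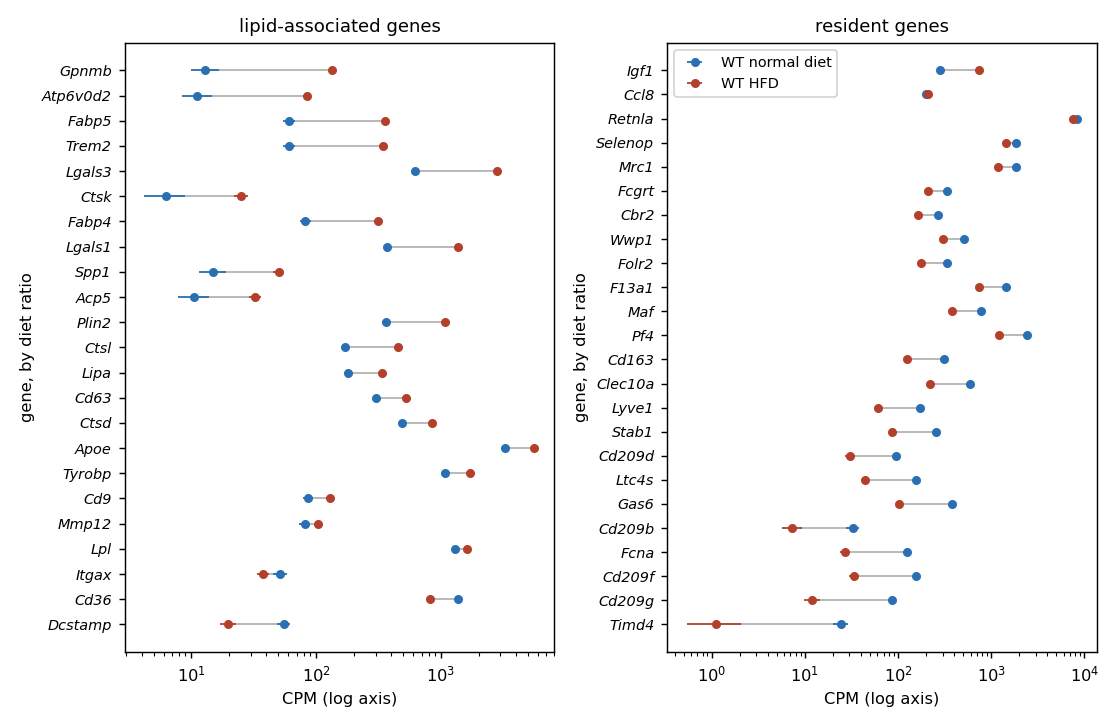
Level (CPM, log axis) of each lipid-associated gene (left) and each resident gene (right) in WT normal diet (blue) and WT HFD (red), ordered by ratio, with 95% Poisson intervals. Gpnmb tops the left panel at 12.9 and 134 CPM, and Timd4 is at the foot of the right panel at 24.4 and 1.12 CPM.

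Across single cells, the lipid-associated difference was largest in the upper part of the distribution. At 2000 UMIs a cell held a median of 26 and 17 lipid-associated UMIs in WT HFD and WT normal diet. The 10th percentiles were 10 and 8, and the 90th 81 and 34. The normal diet's 90th percentile of 34 UMIs was passed by 38.4% of WT HFD cells and 9.28% of WT normal diet cells. Resident UMIs had medians of 18 and 38, 10th percentiles of 3 and 3 and 90th percentiles of 76 and 85. For the resident list the ends of the distributions thus lay close together and the centres apart.

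**Figure D4:**
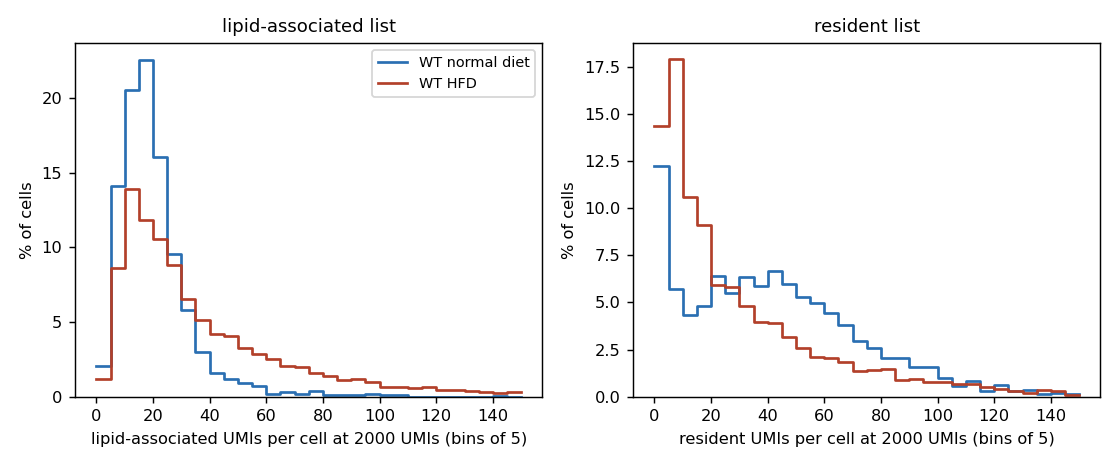
Share of cells (%) by lipid-associated UMIs (left) or resident UMIs (right) per cell thinned to 2000 UMIs, in bins of 5 UMIs, for WT normal diet (blue) and WT HFD (red). On the left the red curve has the longer tail to the right, and on the right the median is 18 UMIs in WT HFD and 38 in WT normal diet.

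Shares of cells that carry several markers were also taken. The lipid gate took cells with a UMI in at least 3 of Trem2, Gpnmb, Cd9, Lpl, Fabp5, Lgals3 and Spp1, and the resident gate those with at least 2 of Folr2, Lyve1, Cd163, Timd4, Cbr2 and F13a1. A gate is a range of cells, not a cell type. All lipid-gate genes are on the lipid-associated list and all resident-gate genes on the resident list, read from the same thinned UMIs. The shares thus restate those lists and are no separate support for their directions. The lipid gate held 40.2% of WT HFD cells (1789 of 4450) and 12.8% of WT normal diet cells (296 of 2317), a ratio of 3.15 (2.78 to 3.57). The resident gate held 25.03% (1114 cells) and 52.8% (1223 cells), a ratio of 0.474 (0.437 to 0.515). Over the alternatives run these ratios ran from 2.45 to 5.11 and from 0.419 to 0.597. Without thinning the lipid gate held 83.7% and 37.0% and the resident gate 52.1% and 67.2%. In WT HFD 854 cells had just the 3 lipid markers needed and 1424 had 1 fewer. In WT normal diet 218 of the 296 gated cells had just those 3, and 771 had 1 fewer.

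Cells with a Ccr2 UMI made up 65.0% and 59.9%, a ratio of 1.08 (1.02 to 1.16). Over the alternatives run this ratio ran from 1.07 to 1.49, and without thinning the shares were 86.3% and 70.7%. For background, cells outside the marker rule were read the same way. Of those with at least 2 fibroblast markers, 6 of 40 in WT HFD and 0 of 8 in WT normal diet fell in the lipid gate, at median depths of 15034.5 and 3175 UMIs, and none in the resident gate. Of those with T and NK cell markers, 6 of 10 and 11 of 25 had a Ccr2 UMI, which T and NK cells can also express.

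The gates overlapped. Of resident-gate cells, 19.7% under HFD and 7.69% on the normal diet were also in the lipid gate. Of lipid-gate cells, 12.2% and 31.8% were also in the resident gate. 5.78% and 9.11% of cells were in none of the lipid, resident, dividing and Ccr2 gates.

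Within the resident gate, the lipid gate and the cells in neither, the 2 lists kept their directions. Among lipid-gate cells outside the resident gate, however, the resident list lay at the level of all genes. The gates are cut on genes of the same lists, so cells within a gate can still differ in how far past the cut they lie. Of resident-gate cells, 473 of 1114 in WT HFD and 395 of 1223 in WT normal diet had just the 2 markers needed. The kept directions are thus no separate support for those of the lists. Among resident-gate cells, leaving out that gate's genes, the resident median was −0.63 and the lipid-associated median 0.7, against −0.22 for all genes. Among lipid-gate cells, leaving out that gate's genes, they were −0.84 and 0.92, against −0.22. Among cells in neither gate they were −0.66 and 0.30, against −0.17. Among the 1570 WT HFD and 202 WT normal diet cells in the lipid but not the resident gate, leaving out the genes of both gates, the resident median was −0.18 against −0.17 for all genes, with 1 higher and 4 lower of 13, and the lipid-associated median 0.97. Trem2 was at 218 and 60.1 CPM within the resident gate, a ratio of 3.63. Retnla, with 0.915 over all cells, had a ratio of 1.53 within the resident gate and 0.559 within the lipid gate. Cd36 had 0.321 within the resident gate and 0.893 within the lipid gate. Retnla and Cd36 thus differed between the gates in opposite ways, a difference that was not tested.

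Rnase2a, a ribonuclease of the eosinophil-associated family, had the highest ratio of the named genes detected in both libraries, at 169.7 CPM in WT HFD and 3.45 CPM in WT normal diet, a ratio of 49.1 (30.2 to 86.2). It stood at 567 and 5.72 CPM within the resident gate and 53.4 and 1.69 CPM within the lipid gate, so that its level under HFD was higher in resident-gate cells. Tmem37, a membrane protein, was at 89.8 and 10.8 CPM, a ratio of 8.32 (6.25 to 11.3). Anxa1, an annexin that dampens inflammation, was at 511 and 147 CPM, a ratio of 3.48 (3.21 to 3.78). Rnh1, the inhibitor of ribonucleases in the cytoplasm, was at 235 and 65.4 CPM, a ratio of 3.59 (3.18 to 4.06).

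At the low end, Mmp9, a protease that cuts gelatin, stood at 2.92 CPM in WT HFD and 103 CPM in WT normal diet, 35.3 times lower (23.8 to 54.6). Pla2g2d, a secreted phospholipase, was at 3.82 and 72.7 CPM, 19.0 times lower (13.4 to 27.9), and Cd38, an enzyme that consumes NAD, at 8.88 and 99.7 CPM, 11.2 times lower (8.83 to 14.4). The acute-phase gene Saa3 was at 0.337 and 54.2 CPM, 161 times lower (54.4 to 784). Its WT HFD level rests on 3 UMIs, and 10 cells held 67.7% of its UMIs in WT normal diet. Marcksl1, a membrane-linked actin regulator, was far more abundant, at 154 and 784 CPM, a ratio of 0.197 (0.185 to 0.209).

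Genes of non-classical monocytes, the patrolling subset, were lower: 11 of 14, with 0 higher and a median of −1.42. The median moved with the marker rule: it was −0.76 with at least 3 of the 5 markers and −1.99 without the rule. Of the cells analysed, 190 in WT HFD and 429 in WT normal diet had just 2 markers. The part of the marker rule in the lower list was not tested. Itgal, an integrin that holds leukocytes to vessels, was at 8.99 CPM in WT HFD and 104 CPM in WT normal diet, a ratio of 0.0862 (0.0672 to 0.109). Ace, the angiotensin-converting enzyme, was at 6.63 and 42.3 CPM, a ratio of 0.157 (0.115 to 0.211), and the fractalkine receptor Cx3cr1 at 58.3 and 139 CPM, a ratio of 0.418 (0.372 to 0.470). Ear2 differed from these, at 385 and 260.0 CPM, a ratio of 1.48 (1.39 to 1.58).

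Genes of classical monocytes split. Of 16 compared out of 20, 5 were higher and 4 lower, with a median of 0.05. The calcium-binding protein S100a4 was at 2172 and 1156 CPM, a ratio of 1.88 (1.82 to 1.94), and lysozyme Lyz2 at 7161 and 4099 CPM, a ratio of 1.75 (1.72 to 1.78). Plac8 was at 31.3 and 226 CPM, a ratio of 0.139 (0.121 to 0.158). Lyz1, the near copy of Lyz2, was at 103 and 566 CPM, a ratio of 0.182 (0.169 to 0.197). Ccr2 itself was level, at 866 and 835 CPM, a ratio of 1.04 (0.998 to 1.08). Only 5 of 15 dendritic cell genes could be compared, 3 lower and 1 higher, while the list's summed level was 1297 and 1066 CPM, a ratio of 1.22 (1.18 to 1.26). Most of that sum came from Mgl2, a lectin that macrophages also express, at 701 and 543 CPM, a ratio of 1.29 (1.23 to 1.35), and from the higher gene, Tnip3, an inhibitor of NF-kappaB signalling, at 553 and 328 CPM, a ratio of 1.69 (1.59 to 1.79). The dendritic cell regulator Zbtb46 was at 1.91 and 28.1 CPM, a ratio of 0.0681 (0.0385 to 0.113), and the lectin Cd209a at 21.5 and 98.2 CPM, a ratio of 0.219 (0.184 to 0.259).

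MHC class II genes, which present antigen to helper T cells, gave 4 higher and 4 lower of 13, with a median of 0.07. Their master regulator Ciita was at 139 CPM in WT HFD and 71.0 CPM in WT normal diet, a ratio of 1.96 (1.74 to 2.22). The invariant chain Cd74 was at 14669 and 8779.7 CPM, a ratio of 1.67 (1.65 to 1.69), while the class II chain H2-Aa was at 6009 and 5940.0 CPM, a ratio of 1.01 (0.997 to 1.03). The costimulatory ligands on the same list were lower, Cd86 at 375 and 762 CPM, a ratio of 0.491 (0.469 to 0.515), and Cd80 at 42.1 and 110.1 CPM, a ratio of 0.383 (0.334 to 0.438). Among 18 class I genes, 3 were higher and 6 lower. The immunoproteasome subunit Psmb8 was at 224 and 92.6 CPM, a ratio of 2.42 (2.18 to 2.69), and the peptide transporter Tap2 at 26.7 and 64.5 CPM, a ratio of 0.414 (0.348 to 0.493).

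Inflammatory genes were lower: 10 of 18 compared, with 0 higher and a median of −0.64. Il1b, the cytokine interleukin 1 beta, stood at 348 CPM in WT HFD and 755 CPM in WT normal diet, a ratio of 0.461 (0.439 to 0.484). The cytokine Il6 was at 16.9 and 114 CPM, a ratio of 0.148 (0.123 to 0.178). Nlrp3, the sensor of the inflammasome that matures interleukin 1 beta, was at 99.6 and 214 CPM, a ratio of 0.465 (0.424 to 0.509). Tlr2, a receptor for bacterial lipoproteins, was at 52.9 and 129 CPM, a ratio of 0.409 (0.362 to 0.463). Il1b was lower within each gate as well, with a ratio of 0.293 in the resident gate, 0.390 in the lipid gate and 0.460 in cells of neither.

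The NF-kappaB pathway, which drives many inflammatory genes, gave 10 lower and 1 higher of 18, with a median of −0.60. Its subunit Nfkb1 was at 264 and 627 CPM, a ratio of 0.421 (0.398 to 0.445), and its inhibitor Nfkbia at 727 and 1203 CPM, a ratio of 0.604 (0.583 to 0.626). Tnip3, another feedback inhibitor, was the 1 higher gene, at 553 and 328 CPM, a ratio of 1.69 (1.59 to 1.79). Interferon-induced genes gave 11 lower and 1 higher of 18 compared, with a median of −0.81. Ly6e, a membrane protein that interferon induces, was at 148 and 405 CPM, a ratio of 0.364 (0.339 to 0.391). Isg15, a ubiquitin-like protein, was level at 25.6 and 24.4 CPM, a ratio of 1.05 (0.835 to 1.33). Cxcl9, which draws T cells, was at 5.84 and 56.1 CPM, a ratio of 0.104 (0.0758 to 0.141), with 98.1% and 74.6% of its UMIs in 10 cells.

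Genes of signalling by the anti-inflammatory cytokine IL-10 were also lower, 7 of 11, with 0 higher and a median of −0.68. The cytokine Il10 was at 71.7 and 81.4 CPM, a ratio of 0.881 (0.775 to 1.003), and its log2 ratio of −0.18 was 0.44 without thinning. The signal carrier Stat3 was at 291 and 682 CPM, a ratio of 0.427 (0.405 to 0.450), and the receptor chain Il10ra at 122 and 205 CPM, a ratio of 0.594 (0.544 to 0.649).

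Chemokines did not share a direction, with 2 higher and 7 lower of 18. Cxcl16, a membrane-bound chemokine that also takes up oxidised lipoproteins, was at 117 and 67.3 CPM, a ratio of 1.73 (1.52 to 1.97). Cxcl2, which draws neutrophils, was at 1888 and 1656 CPM, a ratio of 1.14 (1.11 to 1.17). Ccl24, which draws eosinophils, was at 79.7 and 322 CPM, a ratio of 0.248 (0.226 to 0.271), and Pf4, a chemokine of platelets and resident macrophages, at 1197 and 2449 CPM, a ratio of 0.489 (0.476 to 0.502). In the CKO pair the ratios of Ccl24 and Pf4 were 1.05 and 1.27.

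Lysosome genes gave 8 higher and 3 lower of 34, with a median of 0.18. Cd68, a lysosomal membrane protein whose promoter is printed above, was at 527 CPM in WT HFD and 209 CPM in WT normal diet, a ratio of 2.52 (2.35 to 2.70). The protease Ctsl, also printed, was at 455 and 172 CPM, a ratio of 2.64 (2.45 to 2.86), and the protease Ctsz at 865 and 381 CPM, a ratio of 2.27 (2.16 to 2.39). The abundant protease Ctsb differed less, at 2410.1 and 1803 CPM, a ratio of 1.34 (1.30 to 1.37). Of 18 proton pump genes, 2 were higher, Atp6v0d2 and Atp6v0c, the latter at 762 and 448 CPM, a ratio of 1.70 (1.62 to 1.79). The pump list's median, −0.12, lay near that of all genes.

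Lipid uptake and droplet genes gave 5 higher and 7 lower of 25. Fabp4, a fatty acid carrier of adipocytes and macrophages, was at 316 and 81.8 CPM, a ratio of 3.86 (3.47 to 4.31). G0s2, which blocks the breakdown of stored fat, was at 2.13 and 13.8 CPM, a ratio of 0.155 (0.0875 to 0.261). Genes of the lipid-sensing receptors PPAR and LXR and of cholesterol export gave 4 higher and 6 lower of 20. Nr1h3, which encodes LXR alpha, was at 34.6 CPM in WT HFD and 9.28 CPM in WT normal diet, a ratio of 3.73 (2.70 to 5.26). Angptl4, a PPAR target that inhibits Lpl, was at 43.9 and 9.50 CPM, a ratio of 4.63 (3.38 to 6.47). A pair of LXR targets was lower: the cholesterol exporter Abca1 at 143 and 411 CPM, a ratio of 0.349 (0.325 to 0.374), and Mylip, which removes the LDL receptor, at 28.2 and 107 CPM, a ratio of 0.265 (0.226 to 0.309). Apoe, on the same list, was higher, as given above. The list's median was −0.10, and 0.42 with the span trend removed. Sterol and fatty acid synthesis gave 2 higher and 4 lower of 18, with the prenyl synthase Fdps highest, at 39.9 and 11.7 CPM, a ratio of 3.42 (2.57 to 4.65).

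Fatty acid oxidation genes were higher in 8 and lower in 0 of 20, with a median of 0.45. Etfb, which passes electrons from fatty acid oxidation to the respiratory chain, was at 229.8 and 112 CPM, a ratio of 2.06 (1.87 to 2.27). Eci1, an isomerase for unsaturated fatty acids, was at 26.1 and 7.34 CPM, a ratio of 3.55 (2.47 to 5.25). Cpt1a, which lets fatty acids into mitochondria, was level at 80.7 and 76.8 CPM, a ratio of 1.05 (0.924 to 1.196). Respiratory chain genes of the nucleus gave 8 higher and 0 lower of 38, with a median of 0.26. Their median span was 6.99 kb, against 26.5 kb for all genes compared. In the shortest of the 5 span groups above, the median was 0.24 and 30.8% of genes were higher. Without thinning the list's median was 0.10, against −0.17 for all genes. The part of span in this list was not tested. The ATP synthase subunit Atp5b was at 358 and 161 CPM, a ratio of 2.23 (2.06 to 2.42). Transcripts of the mitochondrial genome were uneven, 5 higher and 3 lower of 13. mt-Nd2 was at 1612 and 527 CPM, a ratio of 3.06 (2.93 to 3.19), mt-Co1 at 4582 and 4743 CPM, a ratio of 0.966 (0.9504 to 0.982), and mt-Nd4l at 193 and 393 CPM, a ratio of 0.491 (0.459 to 0.524). The larger mitochondrial share of WT HFD is given above, and its part in this was not tested.

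Glycolysis and hypoxia genes gave 7 higher and 7 lower of 24. The glycolytic enzyme Gapdh was at 627 and 212 CPM, a ratio of 2.95 (2.76 to 3.16). The hypoxia factor Hif1a was at 80.8 and 172 CPM, a ratio of 0.470 (0.424 to 0.520), and Slc16a3, which exports lactate, at 14.5 and 49.4 CPM, a ratio of 0.293 (0.235 to 0.366).

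Of the 17 iron and haem genes compared, 2 were higher and 7 lower, with a median of −0.05. The ferritin light chain Ftl1, which stores iron, stood at 7781 CPM in WT HFD and 2405 CPM in WT normal diet, a ratio of 3.24 (3.17 to 3.30), and the heavy chain Fth1 at 5478 and 3035 CPM, a ratio of 1.81 (1.77 to 1.84). Slc40a1, ferroportin, the exporter of iron from cells, was at 1.35 and 42.1 CPM, 31.2 times lower (17.5 to 61.4). Hmox1, which frees iron from haem, was at 184 and 401 CPM, a ratio of 0.459 (0.430 to 0.491). The higher genes were these ferritins. In the CKO pair the ratios were 2.53 for Ftl1, 2.26 for Fth1 and 0.0483 for Slc40a1. Cells held a median of 24 and 12 UMIs of the list in WT HFD and WT normal diet, and 54.3% of WT HFD cells passed the normal diet's 90th percentile of 22.

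Genes of alternative activation, which interleukin 4 induces, gave 2 higher and 9 lower of 16, with a median of −0.61. The lectin Clec10a was at 218 and 591 CPM, a ratio of 0.369 (0.348 to 0.391), and the lipoxygenase Alox15 at 0.787 and 16.4 CPM, 20.9 times lower (9.64 to 53.6). Arginase, Arg1, was scarce and higher, at 19.3 and 5.39 CPM, a ratio of 3.58 (2.35 to 5.69). Efferocytosis, the uptake of dying cells, gave 6 higher and 8 lower of 19, with C1qa, which chose the cells, on the list. Trem2, Anxa1 and the integrin Itgav, at 115 and 57.6 CPM, a ratio of 1.99 (1.74 to 2.29), were among the higher, and Timd4, Gas6 and Stab1 among the lower.

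Matrix remodelling gave 4 higher and 7 lower of 18. Fibronectin, Fn1, was at 833 and 1759 CPM, a ratio of 0.474 (0.459 to 0.489), but its log2 ratio of −1.08 was 0.063 with cells above the median depth of their library left out in both. Complement gave 2 higher and 4 lower of 16, a list that holds C1qa and C1qb, which chose the cells. Growth factors gave 4 higher and 5 lower of 17. Gdf15, a factor induced by cell stress, was at 132 and 52.7 CPM, a ratio of 2.51 (2.18 to 2.89), and Areg, a ligand of the EGF receptor, at 10.0 and 56.3 CPM, a ratio of 0.178 (0.138 to 0.227).

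Macrophage transcription factors were lower in 13 and higher in 1 of 29, with a median of −0.44, and the higher one was Nr1h3. Over all genes compared, 28.4% were lower and the median was −0.24. With TMM scaling the list's median was −0.12, against 0.09 for all genes. Among cells in neither the resident nor the lipid gate it was −0.16, against −0.17 for all genes. The lineage factor Spi1 was at 399 and 306 CPM, a ratio of 1.30 (1.22 to 1.39), and Zeb2 at 1760.2 and 2223 CPM, a ratio of 0.792 (0.772 to 0.812). Bhlhe40, a transcriptional repressor, was at 26.7 and 108 CPM, a ratio of 0.247 (0.211 to 0.289), and Nr4a1, an immediate early receptor, at 294 and 982 CPM, a ratio of 0.300 (0.285 to 0.314). Prdm1, which encodes BLIMP1, was scarce in both control libraries, at 21.9 and 29.1 CPM, a ratio of 0.752 (0.601 to 0.944).

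Immediate early genes, which tissue digestion is known to induce, were lower in the WT HFD library: 13 of 24, with 1 higher and a median of −0.65. Their summed level was 18502 CPM in WT HFD and 27342 CPM in WT normal diet. Junb was at 1836 and 3779 CPM, a ratio of 0.486 (0.475 to 0.496), Fos at 2826 and 2774 CPM, a ratio of 1.02 (0.997 to 1.04), and Atf3 at 1102 and 725 CPM, a ratio of 1.52 (1.46 to 1.58). Only 0.494% of WT HFD cells passed the normal diet's 90th percentile of 92 UMIs. The inflammatory and NF-kappaB lists were lower in the same pooled cells. Among cells in neither the resident nor the lipid gate, the immediate early median was 0.01 and the inflammatory median −0.54, and among resident-gate cells they were −0.70 and −0.84. Among lipid-gate cells both were lower, at −0.43 and −0.56, and among dividing cells they were −0.27 and −0.50. The part of the digestion response in the lower inflammatory list was not tested. Heat shock and glucocorticoid genes gave 6 higher and 3 lower of 18, with the chaperone Hspa8 at 1834 and 987 CPM, a ratio of 1.86 (1.80 to 1.92). The unfolded protein response gave 6 higher and 4 lower of 20. Manf, a protein of the endoplasmic reticulum that stress induces, was at 259 and 101 CPM, a ratio of 2.58 (2.33 to 2.86).

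Cell division genes were higher in 24 and lower in 0 of 33 compared, with a median of 1.05. Mki67, a marker of dividing cells, stood at 108 CPM in WT HFD and 28.9 CPM in WT normal diet, a ratio of 3.73 (3.11 to 4.50). Stmn1, which regulates microtubules, was at 230.3 and 79.4 CPM, a ratio of 2.90 (2.59 to 3.25), and Tk1, which makes DNA precursors, at 27.4 and 5.83 CPM, a ratio of 4.71 (3.16 to 7.29). Pcna, the replication clamp, was level at 152 and 166 CPM, a ratio of 0.916 (0.838 to 1.002). The linker histone gene Hist1h1b, one of the 15 genes named for the highest ratios but not on this list, was at 76.2 and 7.77 CPM, a ratio of 9.81 (7.01 to 14.1). With cells of the dividing gate below left out, its log2 ratio was 2.49 in place of 3.14, and that of Mki67 0.40 in place of 1.86. The dividing gate, at least 2 of Mki67, Top2a, Cenpf, Birc5, Pclaf and Stmn1, held 12.3% and 5.61% of cells, a ratio of 2.19 (1.81 to 2.68).

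This difference moved with depth. Dividing-gate cells had median depths before thinning of 21312 UMIs in WT HFD and 13378 in WT normal diet, above those of all cells. With cells of WT HFD above that library's median depth left out, the list's median was −0.47 and the gate's ratio 0.721. With cells above the median depth of their library left out in both, they were 0.504 and 2.34. In the CKO pair the list's median was 0.05, against −0.49 for all genes. The gate's ratio there was 1.15 (0.990 to 1.33), and the ratio of Mki67 1.06.

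Some of the genes named above as higher or lower came back within 1.5 times when the data were handled otherwise. With TMM scaling this was so for Mrc1, Cd36, Il10ra and Nfkbia. With the span trend removed it was so for Mrc1, Cd36 and Apoe. Without thinning it was so for Mrc1, Cd36 and Tnip3, and without the marker rule for the same genes. For Atf3 it was so at 1000 UMIs per cell, with the markers read after thinning, and with at least 3 of the 5 markers. Mrc1 also came back when mitochondrial, ribosomal protein and nuclear genes were left out of the total, and Mki67 when dividing cells were left out. With cells of WT HFD above that library's median depth left out it was so for Mrc1, Ctsk, Stmn1, Mki67, Il10ra, Tk1 and Ctsl, and with cells above the median depth of their library left out in both for Fn1, Atf3, Apoe and Ctsl.

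The same diet comparison in the CKO pair, which shares no library with the WT pair, is set beside it. There 12.2% of genes were over 1.5 times higher and 45.5% lower, and 5.02% and 25.4% were so past 2 times. The median log2 ratio over all genes compared was −0.24 in WT and −0.49 in CKO. List medians are to be read against that of their own pair. The lipid-associated median was 1.40 in WT and 1.19 in CKO, and the resident one −1.17 and −0.82. Chemokines had medians of −0.21 and 0.93, classical monocyte genes 0.05 and 0.90, and nuclear and long-gene RNAs −0.01 and −1.99. Trem2 had ratios of 5.68 and 4.01, Gpnmb 10.3 and 8.18, Rnase2a 49.1 and 34.9, Cd209f 0.214 and 0.656, and Saa3 0.00622 and 0.982. Of the genes compared in both pairs, 58.3% of those higher in WT were higher in CKO, 86.1% of those lower in WT were lower in CKO, and 36 had opposite calls. From the CKO side the shares were 59.1% and 53.8%. The resident gate's ratio of shares was 0.474 in WT and 0.797 in CKO, and the lipid gate's 3.15 and 2.80. Differences between the pairs were not tested.

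**Figure D5:**
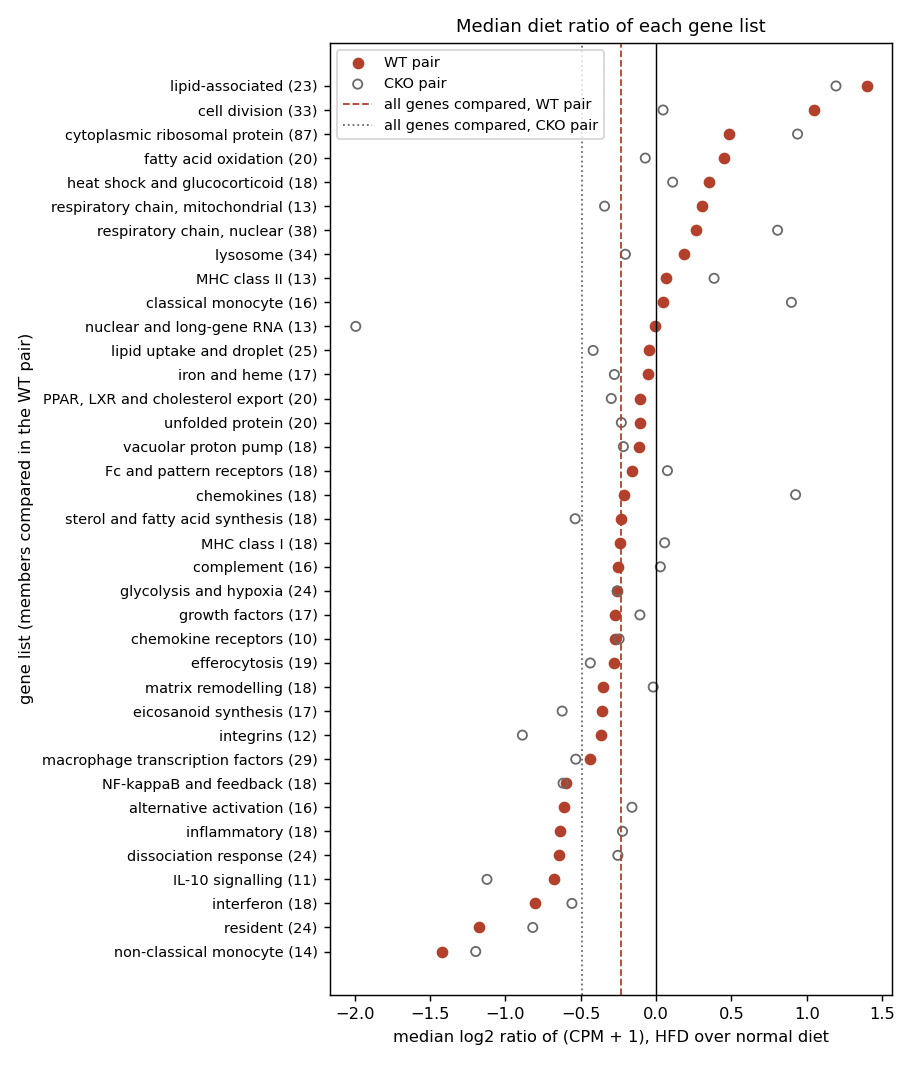
Median log2 ratio of (CPM + 1), HFD over normal diet, of each gene list in the WT pair (filled) and the CKO pair (open), with the number of members compared in the WT pair. Dashed and dotted lines mark the median over all genes compared, −0.24 in the WT pair and −0.49 in the CKO pair. Lipid-associated genes are at 1.40 and 1.19, and non-classical monocyte genes at −1.42 and −1.20.

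Promoters of other lists were searched for 1 motif each, on both strands. The interferon response element, GAAA and GAAA with 2 bases between, stood in 6 of 8 promoters of the lower interferon genes and 12 of 19 of the whole list, against 3.44% of all promoters. The kappaB motif, GGG and TTTCC with 2 bases between, stood in 3 of 8 of the lower NF-kappaB genes and 4 of 15 of that list, against 1.63%. TTTGAA, the cell cycle homology motif, stood in 12 of 22 of the higher cell division genes and 17 of 32 of that list, against 17.9%. TGANTCA stood in 0 of 21 promoters of the immediate early list, and the sterol motif TCACNCCAC in 1 of 20 of the synthesis list, against 1.24%.

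Markers of other cell types were low. T and NK cell genes summed to 75.7 CPM in WT HFD and 60.4 CPM in WT normal diet, with Cd3e at 0 UMIs in both. B cell genes summed to 168 and 207 CPM, with Ighm at 148 and 197 CPM and Cd79a, part of the B cell receptor, at 0 UMIs in WT HFD and 3 in WT normal diet. Neutrophil genes summed to 22.5 and 42.1 CPM, mast cell genes to 1.24 and 3.88 CPM, erythroid genes to 0.899 and 1.08 CPM, and endothelial and mesothelial genes to 22.6 and 30.2 CPM. Fibroblast genes summed to 269 and 160.3 CPM, of which Gsn, which macrophages also express, was at 209 and 144 CPM. Collagen Col3a1 was at 16.2 CPM in WT HFD and 0 in WT normal diet, at least 24.99 times higher against a floor of 3 UMIs, where the lower 95% counting bound of the ratio was 20.1, and 10 cells held 92.4% of its UMIs. Adipocyte genes summed to 327 and 103 CPM, of which Fabp4 made up 316 and 81.8 CPM, while Adipoq was at 0.449 and 0.647 CPM. The part of other cells in the lipid lists that hold Fabp4 was not tested.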

How the data were processed

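Single-cell RNA was counted in 4 libraries of sorted macrophages, 1 per group, prepared by 10x Genomics Chromium 3′ chemistry. The deposited files hold raw UMI counts, written by Cell Ranger 7.0.0 per the file headers, on GRCm38 per the submitters' processing notes. No label or header says if intron reads were counted. The WT libraries held 74879066 and 21829741 UMIs, and their thinned pools 8900000 (WT HFD) and 4634000 (WT normal diet). Thinning was without replacement (seed 1). Pools were scaled to CPM of all UMIs, and a gene counted by size, with no test. Named genes were the 15 highest and 15 lowest ratios of (CPM + 10) at 50 CPM or more outside technical and other-cell genes, the 3 most abundant, 3 highest and 3 lowest of each of 47 lists, and Prdm1; other genes are named as gate markers or, like Cd3e, Cd79a and Adipoq, as defining markers. A few genes that this rule gives are not reported here. The members and lists were chosen with earlier results of these data known. Scrublet in scanpy 1.11.5 called 0 doublets in each library, so none were removed, and an alternative removed top scores. TMM factors came from edgeR 4.0.16, gene spans from GENCODE (GRCm38), and promoters from RefSeq, which had 80.3% of the genes compared. The ratio and interval code was tested on simulated data. The closing section gives the alternatives.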

Additional observations from a re-analysis of the deposited data

Results flagged for a closer look

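Among the named genes, 4 had diet ratios past 1.5 times in opposite directions in the WT and the CKO pair. The difference between the pairs was not tested. Car3, a carbonic anhydrase abundant in adipocytes, had a ratio of 0.464 in WT and 2.04 in CKO, and its WT log2 ratio of −0.98 was −0.10 without thinning. Cdk8, a kinase of the Mediator complex, had ratios of 1.95 and 0.278. Lars2, which charges leucine tRNA in mitochondria, had 1.77 and 0.2497. Cmss1 had 4.20 and 0.385. Cdk8, Lars2 and Cmss1 are on the list of nuclear and long-gene RNAs, which held 6.28% of the thinned UMIs in WT HFD, 4.66% in WT normal diet, 1.19% in CKO HFD and 5.10% in CKO normal diet.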

How the results depend on the processing

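No paired analysis was possible because each group is 1 library with no replicate number. Against 1080 and 2361 genes higher and lower, TMM scaling gave 2017 and 1088, a filter at 50 CPM 505 and 1230, no filter 1767 and 3777 and a fold of 2 384 and 864. A pseudocount of 10 CPM gave 696 higher, and removing the span trend 1358 lower. The other settings kept both counts within 1.5 times, and those settings included both depth splits, chosen after seeing the data. Of 203 named genes past 1.5 times, 148 stayed so in the same direction under all 15 alternatives run on them, 25 lost it under TMM scaling and 26 with the span trend removed. Signs turned in log2 ratio for Flt1 (0.117 with at least 3 of the 5 markers) and Maml2 (0.0333 with the span trend removed). With cells above the median depth of their library left out in both, they turned for Fn1 (0.0630) and Cd2 (0.484). With cells of WT HFD above that library's median depth left out, the cell division median was −0.47 and the dividing gate's ratio 0.721. The cause was not tested. Under TMM scaling 15 of 38 list medians turned positive, from between −0.28 and −0.01 to between 0.04 and 0.31: Fc and pattern receptors, MHC class I, PPAR and LXR, chemokine receptors, chemokines, complement, efferocytosis, glycolysis and hypoxia, growth factors, iron and heme, lipid uptake and droplet, nuclear and long-gene RNA, sterol and fatty acid synthesis, unfolded protein and vacuolar proton pump. Other settings turned list medians as well. With the span trend removed, PPAR and LXR went from −0.10 to 0.42 and efferocytosis from −0.28 to 0.20. The mitochondrial respiratory chain then went from 0.30 to −0.06. With a filter at 50 CPM, glycolysis and hypoxia went from −0.26 to 0.36, and with no filter classical monocyte genes from 0.05 to −0.25. Over the alternatives the lipid-associated median ran from 0.69 to 1.71 and the resident one from −1.39 to −0.86. The floor of 3 UMIs is 0.337 CPM in WT HFD and 0.647 CPM in WT normal diet, which limits rarer genes.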

Other observations

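Cytoplasmic ribosomal protein genes, which make up the protein part of the ribosome, had a median log2 ratio of 0.48 in the WT pair, with 38 higher and 6 lower of 87 compared, and of 0.939 in the CKO pair. The Y-linked gene Ddx3y was detected in both WT libraries, at 67.0 and 157 CPM, and Eif2s3y at 45.2 and 53.9 CPM. Xist was at 0 UMIs in both.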
